A study of Mus musculus with 2 samples.

Results

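Figla, Nobox, Sohlh1, Sohlh2, Lhx8, Taf4b and Tbpl2 are 7 genes for transcription factors and transcription cofactors of the oocyte, taken by symbol from the 21018 genes that both count tables hold. They were followed in germ cells, that is barcodes in which Dazl plus Sycp3 reached at least 6 UMIs per 10000, and in all other barcodes, called somatic below. UMIs are unique molecular identifiers, each of which stands for 1 captured RNA molecule. The rule gave 333 germ cells of 5199 kept barcodes (6.41%) in the MLT-labelled library and 690 of 4819 (14.3%) in the DEHP_MLT-labelled library. Dazl and Sycp3 set this choice, and none of the 7 genes was used in it.

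Ovaries came from C57BL pups at postnatal day 3, and the 10x Genomics 3′ assay was used to make 1 library per group. In the DEHP_MLT group, mothers were gavaged daily with DEHP, a phthalate plasticizer, from embryonic day E16.5, and melatonin was given later each day. In the MLT group DMSO stood in for DEHP and melatonin was given in the same way, so both groups carry melatonin and no group without it was analysed here. The stated question was whether melatonin protects ovaries of pups whose mothers took DEHP while primordial follicles form. The sources used here do not say how many pups were pooled. Groups follow the sample titles. The names of the deposited tables say the opposite, and every direction between the groups would turn if those names were right.

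These factors act in the nucleus of the oocyte around birth, when clusters of germ cells break up and single oocytes are enclosed by pregranulosa cells as primordial follicles. Figla, Sohlh1 and Sohlh2 are basic helix-loop-helix proteins, a class that binds E-boxes as dimers, and Figla is known as an activator of the zona pellucida genes. Nobox and Lhx8 are homeobox proteins of early oocytes. Taf4b is a subunit of the general transcription factor TFIID with a role in the gonads, and Tbpl2 is a relative of the TATA-binding protein that serves growing oocytes. Loss of Figla, Nobox, Sohlh1, Sohlh2, Lhx8 or Taf4b in mice is known to deplete oocytes or to block follicle growth.

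Promoter sequences of 6 of the 7 genes were found in the RefSeq promoter table, build GRCm38.p6. The 250 bases before the annotated start are printed for Figla, Sohlh1, Nobox and Lhx8, the 4 most abundant of the 7 RNAs, because their levels were correlated from cell to cell, Nobox less than the others in the DEHP_MLT-labelled library. E-boxes, read as CANNTG, which is the same on both strands, are in capitals, and the sequence runs 5′ to 3′ on the strand of the gene. The deposited counts were made on build mm9, so these positions apply to GRCm38.p6 only.

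Figla, chr6:86016941-86017190, plus strand: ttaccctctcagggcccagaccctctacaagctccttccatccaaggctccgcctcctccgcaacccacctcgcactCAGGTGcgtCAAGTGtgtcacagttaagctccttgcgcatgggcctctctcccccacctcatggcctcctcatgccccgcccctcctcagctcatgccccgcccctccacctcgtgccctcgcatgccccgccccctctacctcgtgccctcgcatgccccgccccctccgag

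Sohlh1, chr2:25847249-25847498, minus strand: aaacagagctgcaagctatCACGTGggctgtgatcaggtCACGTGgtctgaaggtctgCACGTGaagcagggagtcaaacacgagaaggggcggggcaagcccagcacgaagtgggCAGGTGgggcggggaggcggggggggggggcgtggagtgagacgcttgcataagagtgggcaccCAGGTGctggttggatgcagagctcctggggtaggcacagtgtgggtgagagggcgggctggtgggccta

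Nobox, chr6:43309555-43309804, minus strand: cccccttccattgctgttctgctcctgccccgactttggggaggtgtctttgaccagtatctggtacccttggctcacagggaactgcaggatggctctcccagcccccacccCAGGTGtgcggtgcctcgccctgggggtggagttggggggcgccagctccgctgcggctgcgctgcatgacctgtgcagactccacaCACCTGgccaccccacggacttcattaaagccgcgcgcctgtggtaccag

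Lhx8, chr3:154330561-154330810, minus strand: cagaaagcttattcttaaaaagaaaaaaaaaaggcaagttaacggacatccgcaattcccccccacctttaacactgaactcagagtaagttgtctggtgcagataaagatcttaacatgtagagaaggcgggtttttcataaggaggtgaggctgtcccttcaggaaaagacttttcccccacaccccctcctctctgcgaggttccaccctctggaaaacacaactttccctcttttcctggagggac

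The Sohlh1 window held 5 E-boxes, of which 3 were of the form CACGTG, starting 231, 211 and 192 bases before the start. Of 27025 promoters of the same length, 1.18% held at least 5 E-boxes and 18 (0.0666%) held at least 3 CACGTG. Tbpl2 had 4 E-boxes, a count that 3.86% of promoters reached. Figla and Nobox had 2 each, as 31.7% of promoters or more did, and in Nobox both were CAGGTG or its reverse complement. Sohlh2 had 1, and Lhx8 had none, while 66.0% of promoters had at least 1. The homeodomain core TAATTN, read on both strands, was in none of the 6 windows and in 25.3% of all promoters. TATAAA, also read on both strands, was in none of the 6 and in 12.97% of all promoters. These are matches of letters in a window and no measure of binding.

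The germ cells had a median of 5259 UMIs in the MLT-labelled library (interquartile range 2812 to 31293) and of 57191 in the DEHP_MLT-labelled library (24789 to 94075). In the former, 184 germ cells lay below 6923 UMIs, the lowest total of any barcode in the latter. All 6 germ cell markers (Ddx4, Dazl, Sycp3, Mael, Rnf17 and Tex14) were higher in germ than in somatic barcodes of both libraries, with summed levels of 1813 and 1610 CPM (UMIs scaled to a total of 1000000) in germ cells against 95.9 and 123 in somatic ones. Of 9 granulosa markers, 0 were higher in germ cells, and their sum there was 226 and 219 CPM against 1404 and 1288. Germ cells carrying at least 10 granulosa marker UMIs per 10000 numbered 94 (28.2%) and 38 (5.51%). Just inside the germ threshold, at 6 to 9 UMIs of Dazl plus Sycp3 per 10000, stood 113 and 164 barcodes, and just outside it, at 3 to 6, stood 278 and 143. The libraries shared 4 barcode sequences, none of which was a germ cell in both.

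Figla was the most abundant of the 7 RNAs in oocytes of both libraries. It stood at 653 CPM (95% Poisson interval 637 to 669) in the MLT-labelled library and at 751 (743 to 759) in the DEHP_MLT-labelled library. Sohlh1 came next, at 519 (505 to 534) and 523 (516 to 530). Lhx8 was at 251 (241 to 261) and 284 (279 to 289), and Nobox at 240 (231 to 250) and 277 (272 to 282). The intervals of these homeobox genes overlapped in both libraries, so their order was not resolved. Sohlh2, the partner of Sohlh1 in the same protein class, was at 53.7 (49.1 to 58.5) and 55.0 (52.8 to 57.3). Taf4b stood at 40.2 (36.2 to 44.4) and 36.2 (34.4 to 38.04). Tbpl2 was the rarest, at 4.53 (3.28 to 6.11) and 2.65 (2.18 to 3.18), from 43 and 113 UMIs. The order was the same in both libraries, and all neighbours other than Lhx8 and Nobox had separate intervals. The assay counts 3′ ends, so these levels are per molecule and not per base, and how well each RNA is captured is not known. There is 1 library in each group and so no spread between replicates, and all intervals cover counting error only.

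Between the libraries no level other than that of Tbpl2 differed by 1.5-fold in summed UMIs. As log2 ratios of DEHP_MLT over MLT after adding 1 CPM, Nobox and Figla were at 0.20 each, Lhx8 at 0.18, Sohlh2 at 0.03 and Sohlh1 at 0.01. The intervals of Nobox, Figla and Lhx8 were separate, and those of Sohlh2 and Sohlh1 overlapped. Taf4b was at -0.15, and its intervals overlapped. A gene was called different when its levels were at least 1.5-fold apart with separate intervals, among genes at 10 CPM or more in either library. Of the 7 genes 6 reached that level and 0 were called, where 7.39% of the 8836 genes tested were called in either direction, 1.14% higher and 6.25% lower in the DEHP_MLT-labelled library. The median ratio was 0.11 over these 6 and -0.11 over all genes tested. Tbpl2 was at -0.60 with separate intervals but lay below the level required. No test was made and no p-value can be given, since cells of 1 library are not replicates.

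Giving every germ cell equal weight raised all ratios other than that of Tbpl2. Nobox then stood at 159 CPM in the MLT-labelled library and at 262 in the DEHP_MLT-labelled library, a ratio of 0.72, and was the only one of the 6 called. Figla moved to 0.57, Lhx8 to 0.57, Sohlh2 to 0.62 and Sohlh1 to 0.27, and Taf4b turned to 0.24. In this weighting the many shallow germ cells of the MLT-labelled library count fully. In its 184 germ cells below 6923 UMIs, Figla stood at 389 CPM against 671 in the deeper ones, and Nobox at 125 against 248. In its 94 germ cells with granulosa markers, Figla stood at 210 against 677 in the others, and Nobox at 79.5 against 249. In the DEHP_MLT-labelled library the same split for Figla gave 549 against 762. When both libraries were held to the same UMI floor, Nobox was at 0.15 and Figla at 0.16, while Sohlh1 went to -0.02, Sohlh2 to -0.01 and Taf4b to -0.19.

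**Figure D1:**
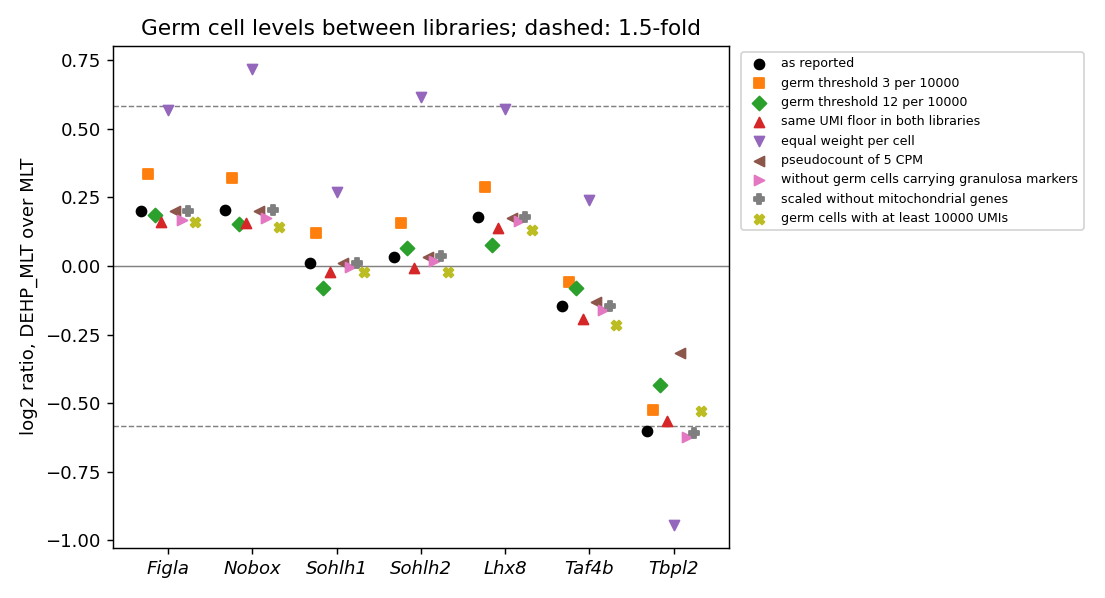
Ratio of germ cell levels between the libraries for each of the 7 genes (y axis: log2 of DEHP_MLT over MLT after adding the pseudocount), 1 symbol per way of choosing or weighting germ cells, with dashed lines at 1.5-fold. Figla, Nobox and Lhx8 lie above 0 in all 9 settings, between 0.08 and 0.72, Tbpl2 lies below 0 in all 9, and Sohlh1, Sohlh2 and Taf4b cross 0.

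Genes that work with or beside these factors were read in the same comparison. Of the 3 zona genes Zp1, Zp2 and Zp3, targets of Figla, 0 were called and the median ratio was -0.11. Zp3, the most abundant, was at 279 CPM in the MLT-labelled library and at 231 in the DEHP_MLT-labelled library. Of 6 tested E proteins and Id factors, the partners and inhibitors of helix-loop-helix proteins, 0 were called. Tcf4, the most abundant E protein, stood at 138 and 109, and Tcf12, the lowest of the list by ratio, at -0.51. Id2, an inhibitor that lacks a DNA-binding region and the highest by ratio, stood at 77.9 and 94.7. In somatic barcodes Tcf4, Tcf12 and Id2 stood higher than in germ cells. The somatic levels were 371 and 276 CPM for Tcf4, 174 and 117 for Tcf12, and 204 and 331 for Id2. The part of somatic RNA in their germ cell levels was not tested. Of 16 tested genes of TFIID and the TBP family, 1 was called higher and 1 lower. Taf7l, a germ cell subunit, stood at 19.1 and 34.6, a ratio of 0.83, and Taf1, the largest subunit, at 74.2 and 42.3, a ratio of -0.80. Taf1 was also lower in somatic barcodes of the DEHP_MLT-labelled library, at 36.2 CPM against 63.2, so its difference was not confined to germ cells. Somatic Taf7l stood at 2.33 CPM there against 1.64. Taf10, the most abundant, stood at 498 and 569.6 and was not called. Of 9 other tested factors of the oocyte regulatory set, 1 was called lower: Pou5f1, the pluripotency factor, at 17.0 and 8.08. Dynll1, the most abundant, stood at 1374 and 1503, and Foxo3, which holds primordial oocytes dormant, at 80.8 and 99.5, and neither was called.

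The gene lists of oocyte state went in different directions. Over all 8836 genes tested, 1.14% were called higher and 6.25% lower in the DEHP_MLT-labelled library. Of 18 tested growing-oocyte genes 0 were called higher and 3 lower, namely Elobl at -1.31, Nlrp14 at -0.90 and Kit, the receptor of Kit ligand, at -0.59, and the list's median was -0.42. Its most abundant gene, Uchl1, had the highest ratio, 0.34. Of 11 tested meiotic genes 4 were called higher and 0 lower, namely Tex101 at 1.60, Tsga8 at 1.30, Taf7l at 0.83 and Syce3 at 0.65, and the median was 0.25. Smc1b, a meiotic cohesin and the most abundant of them, was at -0.19. Taf7l counts both here and in the TFIID list, and the lists were chosen with earlier results of these data known. Of 6 germ identity genes outside the rule 0 were called, at a median of -0.36, with Tdrd1, the most abundant, at 220 and 175 CPM. The part of such differences between the oocytes of the libraries in the factors' ratios was not tested.

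All 7 factors were higher in oocytes than in somatic barcodes. In the MLT-labelled library the log2 ratio of germ over somatic barcodes was 4.32 for Lhx8, 4.10 for Figla, 4.01 for Nobox, 3.92 for Sohlh2, 3.90 for Sohlh1, 2.97 for Taf4b and 2.19 for Tbpl2. In the DEHP_MLT-labelled library it was 3.54 for Lhx8, 3.48 for Sohlh1, 3.45 for Figla, 3.38 for Nobox, 3.29 for Sohlh2, 2.59 for Taf4b and 1.68 for Tbpl2. All 6 tested members were called higher in both libraries, against 31.9% of 10641 genes in the MLT-labelled library and 35.4% of 10205 in the DEHP_MLT-labelled library. Lhx8 ranked 11 of 10641 and 26 of 10205 by this ratio, and Taf4b ranked 324 and 374. Genes were tested here at 10 CPM or more in either class. Sohlh2, at 2.61 and 4.74 CPM in somatic barcodes, and Taf4b, at 4.25 and 5.17, passed through germ cells only. That filter fixed their direction, so their calls are no support. Figla, Nobox, Sohlh1 and Lhx8 reached 10 CPM in both classes. Germ cells were chosen by genes of the same cell type, so a high rank of other oocyte genes is a description of these barcodes.

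In summed UMIs the somatic barcodes of the DEHP_MLT-labelled library held more of all factors other than Tbpl2, at 67.8 CPM for Figla against 37.3. After thinning to 2000 UMIs each, Figla and Sohlh1 turned, seen in 6.66% and 6.59% of these barcodes against 8.98% and 7.71%. Nobox, Lhx8, Sohlh2 and Taf4b stayed on the higher side, with Nobox seen in 3.71% against 2.98%. A cluster below the germ threshold that still carried 5 germ markers held 181 barcodes of that library and 25 of the other, and its Figla level was 376 and 380 CPM. Clusters left unnamed held 469 barcodes of the MLT-labelled library at a median of 3282 UMIs, with Figla at 133 CPM. Among stroma-like cells Figla stood at 28.9 (DEHP_MLT-labelled library) and 30.4 (MLT-labelled library). Of barcodes with no UMI of Dazl or Sycp3, 29.2% in the MLT-labelled library and 29.4% in the DEHP_MLT-labelled library held a UMI of Figla, at median depths of 10465 and 11229 UMIs. Stroma-like, endothelial-like and erythroid-like cells should lack Figla, so shares and levels of this size are read as background and not as expression. The source of this background was not tested. In stroma-like cells Figla, Sohlh1, Nobox, Lhx8 and Sohlh2 stood at 3.25% to 5.27% of their own germ cell level in both libraries. In granulosa-like cells they stood at 3.62% to 5.996%, close to the stroma values.

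**Figure D2:**
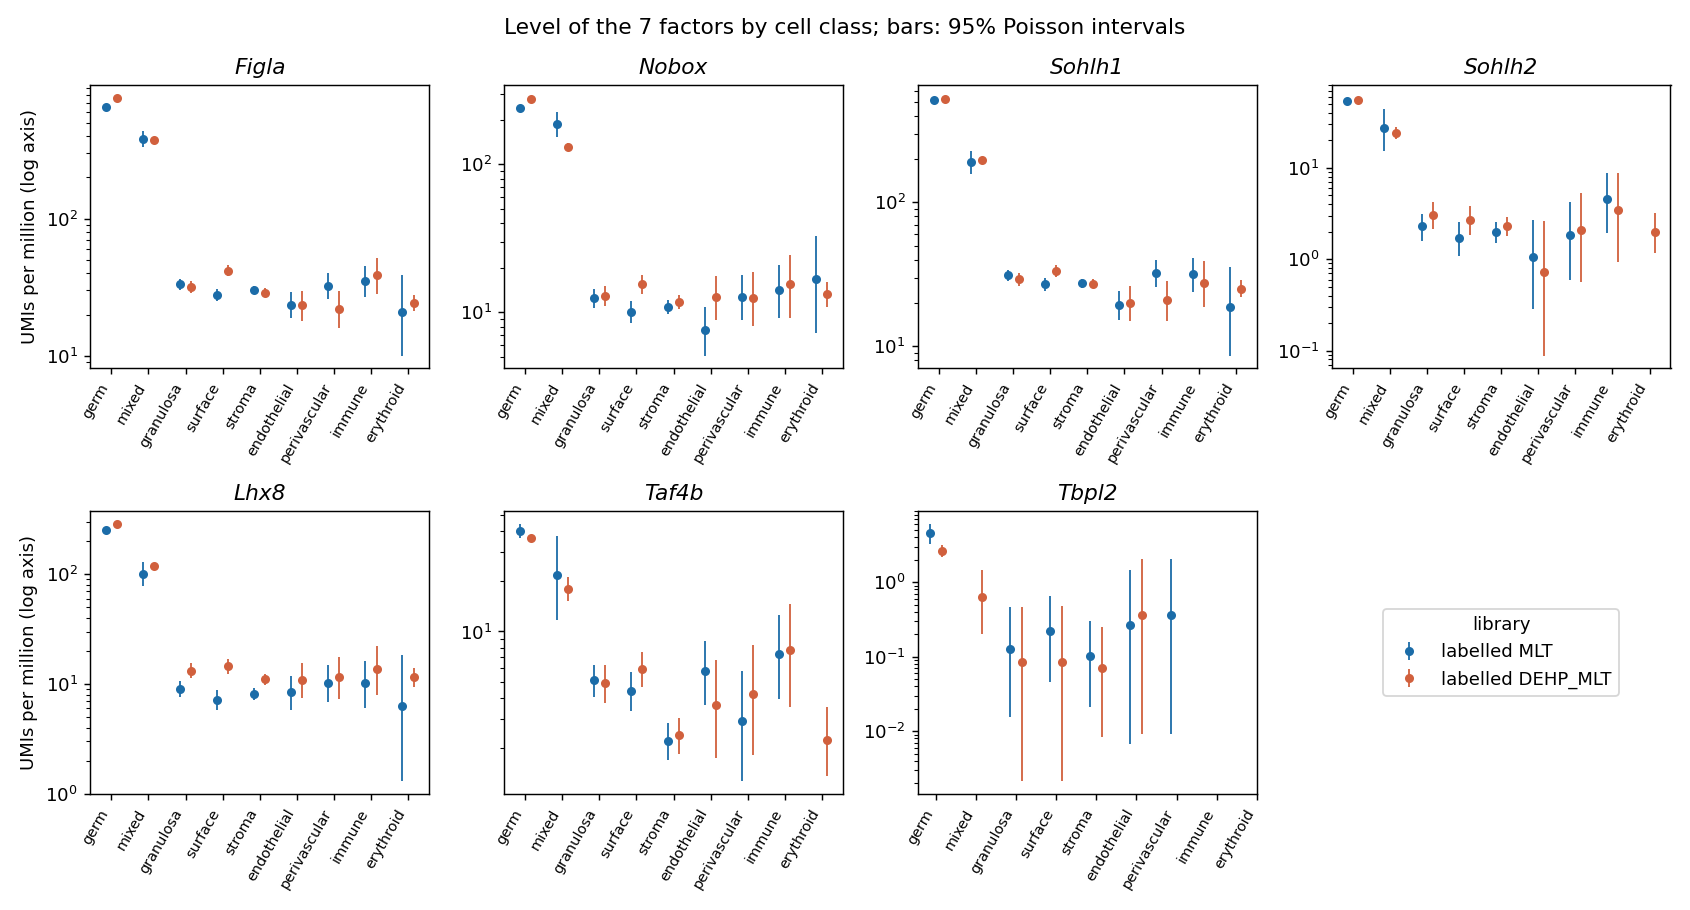
Level of each gene in CPM (log axis) in germ cells, in the mixed cluster and in the named somatic-like classes, for both libraries, with 95% Poisson intervals; classes with 0 UMIs have no point. Germ cells are highest in every panel, the mixed cluster lies between, and the other classes sit near 1 low level for each gene other than Taf4b and Tbpl2. Tbpl2 is too rare in somatic barcodes to be read.

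Taf4b did not follow Figla, Sohlh1, Nobox, Lhx8 and Sohlh2 in granulosa-like cells. Tbpl2, with a UMI in 15 and 10 somatic barcodes, was too rare to compare. In granulosa-like cells Taf4b stood at 5.08 CPM (4.03 to 6.32) in the MLT-labelled library and at 4.88 (3.70 to 6.30) in the DEHP_MLT-labelled library. This is 12.6% and 13.5% of its germ cell level. In stroma-like cells it stood at 2.21 (1.70 to 2.81) and 2.38 (1.85 to 3.02), or 5.49% and 6.57%. It was at 10.97% and 16.4% in surface epithelium-like cells, at 14.4% and 10.1% in endothelial-like cells and at 18.3% and 21.4% in immune-like cells. For these classes no such percentages of the other genes are given here, so no comparison is drawn from them. The part of Taf4b in the joint UMIs of the 7 genes was 2.28% in germ cells of the MLT-labelled library (exact 95% interval 2.06 to 2.52) and 1.88% in those of the DEHP_MLT-labelled library (1.78 to 1.97). In granulosa-like cells it was 5.45% (4.34 to 6.73) and 5.13% (3.92 to 6.58), with intervals above and apart from those of germ cells in both libraries. In stroma-like cells it was 2.73% and 2.84%. The intervals there were 2.11 to 3.46, which overlaps that of germ cells, and 2.21 to 3.59, which lies above it. How much Taf4b each somatic class transcribes was not tested.

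**Figure D3:**
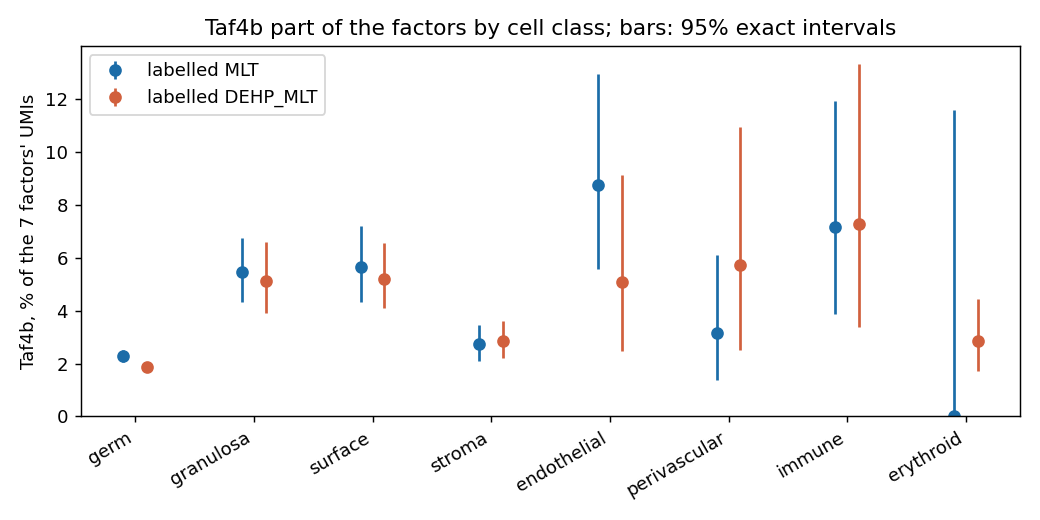
Part of Taf4b in the joint UMIs of the 7 genes (y axis, percent) by cell class in both libraries, with exact 95% intervals. Granulosa-like and surface epithelium-like cells lie between 5.13% and 5.63%, above the 2.28% and 1.88% of germ cells, and stroma-like cells lie at 2.73% and 2.84%.

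Detection in single oocytes was compared after each cell had been thinned to 2000 UMIs, since depth differed between the libraries, and no germ cell was left out. Figla was then seen in 58.9% of oocytes of the MLT-labelled library (exact 95% interval 53.4 to 64.2) and in 72.0% (68.5 to 75.4) of those of the DEHP_MLT-labelled library. Sohlh1 was seen in 50.2% and 59.9%, Lhx8 in 28.5% and 42.9%, and Nobox in 24.9% and 37.5%. Taf4b was seen in 6.61% and 7.68%, Sohlh2 in 5.11% and 10.3%, and Tbpl2 in 3 of 333 and 2 of 690 cells. Without thinning Figla was seen in 76.6% and 99.6%. Somatic barcodes thinned in the same way showed Figla in 8.98% and 6.66%, and stroma-like cells in 6.84% and 4.74%. At least 1 of the 7 was seen in 83.8% (79.4 to 87.6) and 94.5% (92.5 to 96.1) of oocytes, against 16.2% and 14.7% of stroma-like cells.

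Most thinned oocytes held a few of the factors at once. The median was 2 of 7 in both libraries. At least 4 were seen in 6.61% (4.19 to 9.83) of oocytes of the MLT-labelled library and in 11.7% (9.43 to 14.4) of those of the DEHP_MLT-labelled library. None was seen in 54 (16.2%) and 38 (5.51%). In the 149 germ cells of the MLT-labelled library with at least 6923 UMIs, thinned alike, at least 1 was seen in 92.6%, close to the 94.5% of the other library. Figla and Sohlh1 were seen together in 35.4% and 45.7% of cells, where the product of their single shares was 29.5% and 43.1%. Figla and Lhx8 were seen together in 20.4% and 30.9%, with products of 16.8% and 30.9%, so the latter library showed no excess. Sohlh1 and Lhx8 were seen together in 16.8% and 28.4%, with products of 14.3% and 25.7%. No pair was tested. Without the 94 and 38 germ cells with granulosa markers, at least 4 factors were seen in 8.79% and 12.3%.

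**Figure D4:**
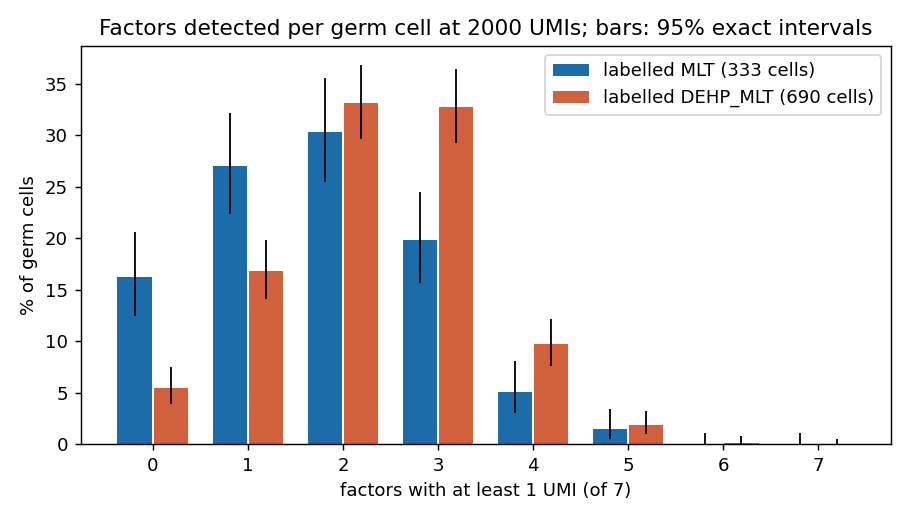
Number of the 7 genes with at least 1 UMI per germ cell after thinning to 2000 UMIs (x axis) against the percent of germ cells (y axis), with exact 95% intervals, for 333 cells of the MLT-labelled library and 690 of the DEHP_MLT-labelled library. Cells with 0 or 1 factor make a larger part in the former and cells with 3 a larger part in the latter.

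Most deep cells held 5 of the factors together. Of germ cells with at least 10000 UMIs, used in full, 100 of 126 (79.4%, 71.2 to 86.1) in the MLT-labelled library and 546 of 647 (84.4%, 81.4 to 87.1) in the DEHP_MLT-labelled library held Figla, Nobox, Sohlh1, Sohlh2 and Lhx8 together. The median was 6 of 7 factors in both, and 0 of these cells lacked all 7. Figla was missing in 3 and 2 of them. The 3 cells of the MLT-labelled library held 36138 UMIs in all, with 37 of Dazl, 6 of Sohlh1, 5 of Lhx8 and 5 of Taf4b. The pair in the DEHP_MLT-labelled library held 22058 UMIs, with 11 of Dazl and 10 of Tex101, a germ cell surface protein of the testis and fetal ovary, and a median of 7.44 granulosa marker UMIs per 10000.

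Spread from oocyte to oocyte was widest for Figla and Sohlh1. In deep cells thinned to 10000 UMIs, Figla had a mean of 6.26 UMIs per cell in the MLT-labelled library and 7.25 in the DEHP_MLT-labelled library, with highest cells at 27 and 32. Sohlh1 had means of 5.49 and 4.98, with highest cells at 16 and 19. Lhx8 had means of 2.71 and 2.78 and Nobox of 2.5 and 2.65, and Nobox was missing in 10.3% and 10.0% of these thinned cells. Taf4b, at means of 0.42 and 0.33, was missing in 69.8% and 70.9%. Counting alone would put the variance of such counts over their mean near 1. This value was 3.01 and 2.15 for Figla and 2.59 and 1.93 for Sohlh1. It was lower for Lhx8 (1.63 and 1.37), Nobox (1.18 and 1.29) and Taf4b (1.53 and 0.96). Cells without Nobox or Taf4b are therefore not read as oocytes that lack these RNAs.

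Across deep cells Sohlh1 and Lhx8 went together most closely, with a Pearson correlation of 0.57 over 126 cells of the MLT-labelled library and 0.47 over 647 of the DEHP_MLT-labelled library, on the scale of log UMIs per 10000. Figla and Sohlh1 were at 0.51 and 0.39, and Figla and Lhx8 at 0.43 and 0.34. Nobox and Sohlh1 were at 0.51 and 0.28, but Nobox and Figla at 0.46 and 0.13. Taf4b lay between -0.10 and 0.21 with the other 6 in both libraries. These values describe cells of 1 library that share depth, free RNA and granulosa transcripts, and the part of each was not tested.

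Over all germ cells, the genes most alike to each factor were found by the mean of this correlation over both libraries, among 8470 genes. For Figla they were Uqcc2, a mitochondrial assembly factor, at 0.50, Uchl1, an abundant ubiquitin hydrolase of oocytes, at 0.48, and Syce2, of the synaptonemal complex, at 0.46. For Sohlh1 they were Uchl1 at 0.50, Ckb, the brain creatine kinase, at 0.47, and Figla at 0.42. For Lhx8 they were Uchl1 at 0.41, Sohlh1 at 0.41 and Syce2 at 0.40. In germ cells with at least 10000 UMIs alone, among 10429 genes, Figla had Uqcc2 at 0.60, Uchl1 at 0.59 and Vkorc1 at 0.55. Sohlh1 had Uchl1 at 0.62, Ckb at 0.59 and Acat1 at 0.56 there. Lhx8 had Sohlh1 at 0.52, Uchl1 at 0.49 and Acat1 at 0.48. Syce2 thus left the lists of Figla and Lhx8, and Figla left that of Sohlh1. The Nobox list over all germ cells was different, with Cd164l2 at 0.37 and Tubb2b and Eif3g at 0.35 each. In germ cells with at least 10000 UMIs alone, the Nobox list was Ccno at 0.46, Uchl1 at 0.45 and Cd164l2 at 0.45. Taf4b came nearest to Nol8 at 0.28, to Sycp1, of the synaptonemal complex, at 0.23 and to 4930447C04Rik at 0.23. Sohlh2 came nearest to Eif3g at 0.30, Zfp958 at 0.28 and Gtsf1 at 0.26, and Tbpl2 to Clmn at 0.22, Mccc2 at 0.20 and Wbp1l at 0.19. Taf4b, Sohlh2 and Tbpl2 are sparse, and their values over all germ cells are too weak to be read. In germ cells with at least 10000 UMIs alone, Taf4b was at 0.39 each with Nol8, Taf7l and 4930447C04Rik. Over all germ cells levels also went with depth, at 0.42 and 0.16 for Figla and at 0.51 and 0.26 for Nobox.

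Oocytes were then split in tertiles over both libraries by their summed Zp1, Zp2 and Zp3 level, with lower bounds of 2.47 and 5.89 UMIs per 10000 for the middle and high tertiles. Taf4b was the 1 tested member called, lower in the high tertile of the MLT-labelled library. Nobox and Lhx8 had separate intervals in both libraries and lay under 1.5-fold, Nobox on the higher and Lhx8 on the lower side. Nobox stood at 204 CPM (187 to 222) in the low, 238 in the middle and 269 (252 to 287) in the high tertile of the MLT-labelled library. In the DEHP_MLT-labelled library it stood at 254 (246 to 262), 259 and 328 (318 to 338). The log2 ratio of high over low tertile was 0.40 and 0.37. Taf4b stood at 52.9 (44.3 to 62.7), 40.8 and 30.3 (24.8 to 36.7) in the former and at 44.6 (41.2 to 48.1), 31.3 and 32.1 (29.0 to 35.4) in the latter, ratios of -0.78 and -0.46. Lhx8 went from 271 to 228 and from 310 to 260, ratios of -0.25 and -0.25. In germ cells with at least 10000 UMIs alone, Nobox went from 217 to 278 and from 254 to 327 CPM, and Taf4b from 55.4 to 32.6 and from 44.2 to 31.4, with separate intervals each time.

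Figla, the activator of the zona genes, did not rise with the zona level. It stood at 660, 627 and 674 CPM over the tertiles of the MLT-labelled library and at 821, 707 and 722 over those of the DEHP_MLT-labelled library. The ratios were 0.03 and -0.19. Sohlh1 had ratios of -0.03 and -0.11. For both genes the low and high tertiles overlapped in the MLT-labelled library and had separate intervals in the other, lower in the high tertile and under 1.5-fold. Sohlh2 had ratios of 0.19 and -0.09, and its intervals overlapped in both libraries. Tbpl2 stood at 1.13 (0.66 to 1.81), 2.33 and 4.90 (3.74 to 6.30) in the DEHP_MLT-labelled library, from 17, 36 and 60 UMIs, a ratio of 1.47. In the MLT-labelled library it stood at 4.74, 2.90 and 6.01, from 12, 10 and 21 UMIs, and the intervals overlapped. Under the call rule 1 of 6 tested members was called in the MLT-labelled library, Taf4b, which was lower, as were 5.07% of 9158 genes while 4.3% were called higher, and 0 in the DEHP_MLT-labelled library, where 12.2% of 8726 genes were called higher and 3.75% lower. The 7 genes summed had ratios of 0.01 and -0.09, and the median over all genes tested was -0.08 and -0.03. Median granulosa marker levels were 4.02 and 3.19 per 10000 in the low and high tertiles of the MLT-labelled library and 0.64 and 1.30 in those of the DEHP_MLT-labelled library.

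**Figure D5:**
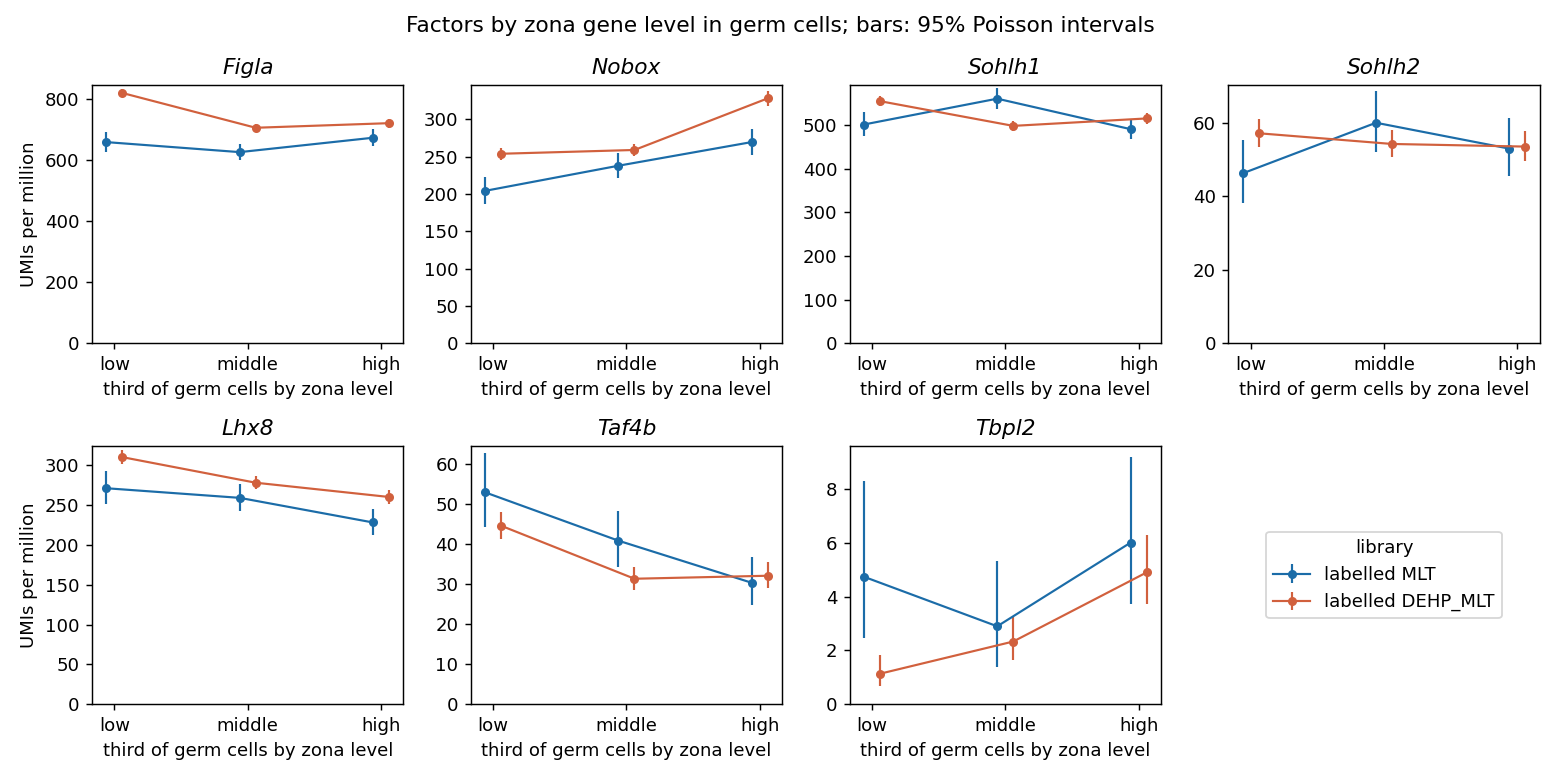
Level of each gene in CPM (y axis from 0) in germ cells of the low, middle and high tertile of zona transcript level (x axis), with 95% Poisson intervals, for both libraries. From low to high tertile Nobox stands at 204 and 269 (MLT) and at 254 and 328 (DEHP_MLT), and Taf4b, called in the former library, at 52.9 and 30.3 and at 44.6 and 32.1.

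Other splits ranked the oocytes differently. The score of growing-oocyte genes other than zona sums UMIs, so its most abundant genes, Uchl1 and Dppa3, weigh most in it. In germ cells these stood at 2839 and 2365 CPM in the MLT-labelled library and at 3606 and 2166 in the other. Over the zona tertiles Uchl1 had ratios of 0.07 and 0.02. The part of Uchl1 and Dppa3 in the ratios of the factors was not tested. By growing-oocyte genes other than zona, Nobox had ratios of high over low tertile of 0.99 and 0.66, Sohlh1 of 1.04 and 0.49, and Figla of 0.53 and 0.24, while Taf4b was at -0.42 and -0.24 with overlapping intervals. In the MLT-labelled library 4 of the 6 tested members (Nobox, Sohlh1, Sohlh2 and Lhx8) were called higher and in the DEHP_MLT-labelled library 1 was, Nobox, against 10.8% and 5.57% of genes. The low tertile was also shallower, at a median of 3189 against 9750 UMIs in the former library and 47147 against 66705 in the latter. Among germ cells with at least 10000 UMIs 3 of these 5 calls were lost. There Lhx8 stood at 205 and 254 CPM in the low and high tertile of the MLT-labelled library and Sohlh2 at 43.5 and 58.1, and Nobox stood at 215 and 323 in the DEHP_MLT-labelled library, 1.498-fold apart. Nobox at 182 and 280 and Sohlh1 at 361 and 549 were still called in the MLT-labelled library. In these deep cells Taf4b went from 56.0 to 37.4 in the MLT-labelled library and from 40.3 to 33.4 in the other. Its intervals were separate in both, and it was called in neither. By meiotic genes, Taf4b was at 0.52 with overlapping intervals and at 0.69 with separate ones, with Lhx8 at 0.96 and 0.56, Sohlh1 at 0.89 and 0.55 and Figla at 0.55 and 0.45, while Nobox was at 0.45 and 0.08. Here 2 of 6 were called higher in the MLT-labelled library, Sohlh1 and Lhx8, and 1 in the DEHP_MLT-labelled library, Taf4b, against 7.14% and 6.61% of genes. Median depths of the low and high tertiles were 3202 and 7676 UMIs in the former and 46140 and 62947 in the latter. In germ cells with at least 10000 UMIs these 3 calls were made again, and Taf4b was also called in the MLT-labelled library, at 36.3 and 55.7 CPM. In both splits the low tertile carried more granulosa transcripts. Their median was 9.99 per 10000 in the low against 1.37 in the high growing tertile of the MLT-labelled library and 3.01 against 0.63 in the other library. By meiotic genes it was 10.9 against 1.25 and 5.42 against 0.62, and the part of these transcripts in the ratios was not tested.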

How the data were processed

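For each library the authors deposited raw counts, whole numbers of UMIs by gene and barcode, without normalization. They used Cell Ranger, Seurat 4.2.0 and build mm9, per the submitters' processing notes; their cell filters are not given here. Groups follow the sample titles.

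The members and lists were chosen with earlier results of these data known. Kept barcodes had 500 genes or more and no more than 20% of UMIs from mitochondrial genes. Germ cells had Dazl plus Sycp3 at 6 or more per 10000 UMIs. The remaining barcodes were clustered with scanpy 1.11.5 (2000 variable genes, 30 components, 15 neighbours, Leiden resolution 0.5, igraph 0.11.9). A cluster was named "-like" after a cell type with at least 3 markers in 25% of cells at a log2 fold of 1, a rule written after the data were seen. A cluster with germ markers was kept as mixed. The names are rebuilt and can differ from those of the study. No doublet caller was run, and levels between the libraries and the share with at least 4 factors were also computed without germ cells carrying granulosa markers.

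UMIs were summed per class and scaled to CPM with Poisson intervals (scipy 1.17.1). Shares carry exact Clopper-Pearson intervals after thinning in 1 seeded draw per cell. The rule for named genes allowed all 7 members, of each list up to 4 genes at the extremes and the most abundant gene, and the 3 genes most alike to each member. Alternatives were other germ thresholds, UMI floors, cell weights, pseudocounts, thinning depths and state scores. Python 3.11.15, numpy 2.4.6, pandas 2.3.3, anndata 0.12.19 and matplotlib 3.10.9 were used.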

Additional observations from a re-analysis of the deposited data

How the results depend on the processing

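No paired analysis was possible because each group is 1 library, so no replicate could be left out either. The count of called members between the libraries was 0, and 1 (Nobox) with equal weight per cell. In germ against somatic barcodes 6 of 6 tested members stayed called in every setting run, but the size of their log2 ratios moved. In the DEHP_MLT-labelled library these ran from 2.59 to 3.54, and from 1.85 to 2.07 at a threshold of 12 per 10000. Against somatic barcodes with no UMI of Dazl, Sycp3 or Ddx4 they ran from 3.13 to 4.75. The same 3 ranges in the MLT-labelled library were 2.97 to 4.32, 2.76 to 3.79 and 3.26 to 4.70. At least 1 of 7 factors was seen in 83.8% of germ cells of the MLT-labelled library, and in 98.8% when thinned to 5000 UMIs, 91.9% without thinning, 94.8% at a threshold of 12 per 10000 and 92.6% with the same UMI floor. In the DEHP_MLT-labelled library the 94.5% became 99.9% at 5000 UMIs and 100% without thinning. At least 4 of 7 came to 48.8% and 58.7% at 5000 UMIs and to 47.1% and 97.4% without thinning. The thinning depth sets such shares by construction, while the threshold and the floor change which cells enter. At 5000 UMIs 168 of 333 germ cells of the MLT-labelled library were deep enough. The summed members' log2 ratio over state tertiles moved from 0.01 to 0.73 (growing genes) and 0.68 (meiotic genes) in the MLT-labelled library, and from -0.09 to 0.35 and 0.43 in the DEHP_MLT-labelled library. The cause was not tested. Tbpl2, at 43 UMIs in the MLT-labelled library, ranged from -0.94 to -0.32 over the settings. Germ cells with at least 10000 UMIs were a setting chosen after seeing the data; there Nobox was at 0.14, Figla at 0.16 and Taf4b at -0.21.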
